A study of Aspergillus cristatus with 9 samples.

Results

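*Aspergillus cristatus*, the golden flower fungus of fermented teas, was compared here between the roots of 2 *Panax* species. The comparison set 3 libraries of the fungus grown on *P. ginseng* roots (EcRS) against 3 libraries of the fungus grown on *P. notoginseng* roots (EcSQ), 6 of the 9 libraries in the series. Strain JLU had been kept on PDA plates for 10 days in all groups. Fungal cakes were then moved onto sterilised roots and left at 28 °C for 1 week, after which total RNA was taken from the mycelium. For *P. ginseng* the methods instead name spores sprayed onto the sterilised roots. The 3 libraries of the fungus without root contact (EcCK) stand beside the values below as a description and enter no test here. For EcCK the labels name mycelium and the methods name spores. A single strain was used, and nothing in the sources ties each library to a culture of its own. The p-values given thus set the difference between the groups against the spread of these libraries only. They do not speak for other cultures or strains. For 10227 genes the authors listed an estimated count and the FPKM, a level scaled to transcript length and to the mapped fragments of the library. Of these, 8784 genes averaged 1 FPKM or more across the EcRS and EcSQ libraries and were tested.

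A mould that meets dead plant tissue secretes hydrolases that open cellulose, xylan and pectin, and takes up the sugars and amino acids that are set free. *Panax* roots also store starch and the saponins called ginsenosides, which carry sugar chains. Aspergilli spread by conidia, whose stalks are built under the regulators brlA, abaA and stuA in *A. nidulans*, and *A. cristatus* also forms yellow fruiting bodies, the golden flowers. Most genes of the table have no name: 8733 of 10227 are described as a hypothetical protein. Names below are those of the description, the GO terms or, where neither names a product, the KEGG assignment in the table, which at times name different proteins for the same gene. Positions are those of the contigs in the table. The methods name the NCBI assembly ASM4470619v1 as the reference, and whether its contigs are those of the table was not checked here. No gene sequence was used here.

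The EcSQ libraries were not alike, and EcSQ3 stood apart from EcSQ1 and EcSQ2. Across the 10227 genes, which are not independent replicates, Spearman's rho of FPKM between EcRS libraries lay between 0.985 and 0.987. Between EcSQ libraries it was 0.958 for replicates 1 and 2, 0.870 for 2 and 3 and 0.803 for 1 and 3. EcSQ3 had a rho between 0.920 and 0.929 with the EcRS libraries, above its values with its own group. EcSQ1 and EcSQ2 also had a higher rho with every EcRS library than with EcSQ3, at 0.858 to 0.872 and 0.900 to 0.918. With EcCK3 the rho was 0.904 for EcSQ1 and 0.881 for EcSQ2, against 0.749 for EcSQ3. Whether EcSQ3 is a mixed-up, mixed or differently sampled library was not tested, and each EcSQ mean and fold change over 3 libraries averages over this split. The median gene had 5.92, 5.58 and 6.38 FPKM in EcRS1 to EcRS3, against 20.7, 14.1 and 4.29 FPKM in EcSQ1 to EcSQ3. Estimated counts in genes came to 45891944 to 52617713 in EcRS, against 53961809 to 55542113 in EcSQ. Of the mapped units, 23.1 to 26.9% fell outside the listed genes in EcRS, against 12.1 to 14.9% in EcSQ.

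**Figure D1:**
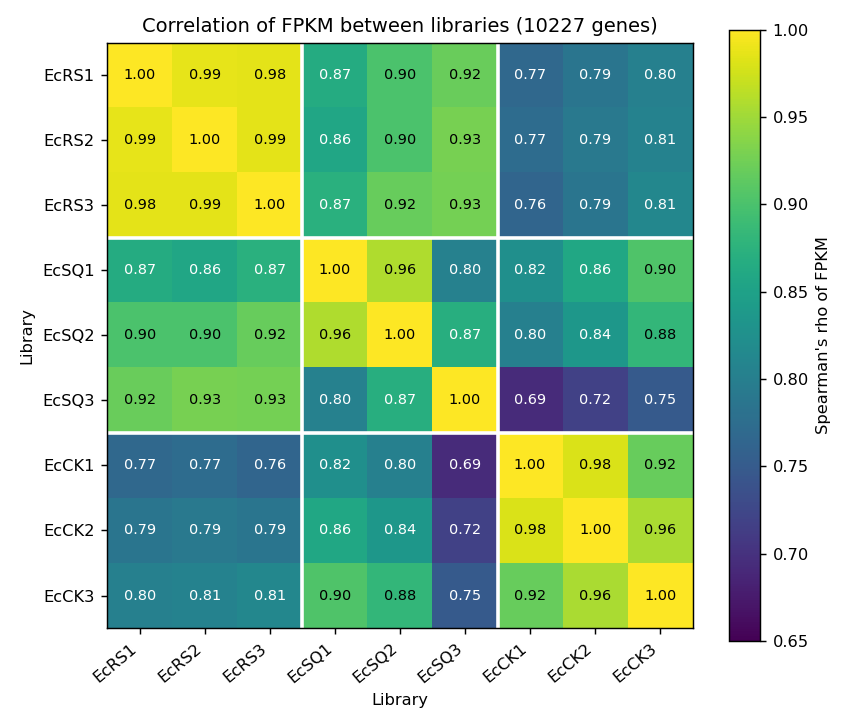
Spearman's rho of FPKM over the 10227 genes for each pair of the 9 libraries, EcRS first, then EcSQ, then EcCK, with the value printed in each cell. EcRS libraries stand at 0.985 to 0.987 with each other, and EcSQ3 at 0.803 and 0.870 with EcSQ1 and EcSQ2.

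Gene by gene the same split was seen. In 5699 of the 8784 genes tested (64.9%), EcSQ1 and EcSQ2 both lay above all 3 EcRS libraries, and in 3843 of these genes EcSQ3 did not. EcSQ3 was the lowest of the 6 libraries in 3904 genes (44.4%) and the highest in 1171 (13.3%). For 287 genes EcSQ1 and EcSQ2 were both at least 8-fold above every EcRS library, counting values under 1 FPKM as 1. In 276 of the 287, EcSQ3 was at most 2-fold above the highest EcRS library, with the same floor and no lower bound.

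**Figure D2:**
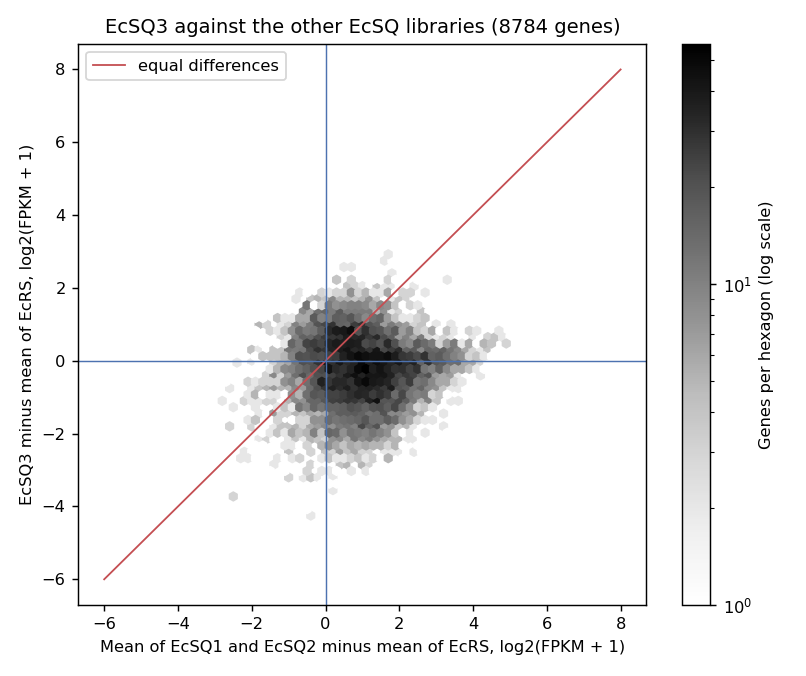
Difference from the EcRS mean on the log2(FPKM + 1) scale for 8784 genes, the mean of EcSQ1 and EcSQ2 on the x axis and EcSQ3 on the y axis, with darker hexagons holding more genes. Most genes lie right of 0 and below the line of equal differences. Of the genes at least 8-fold higher in EcSQ1 and EcSQ2, 276 are at most 2-fold above the highest EcRS library in EcSQ3.

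The 3 genes that the table assigns to agmatine deiminase, an enzyme that makes a precursor of the polyamine putrescine, show this split. SI65_07647 had 95.3, 90.2 and 108 FPKM in EcRS, against 6217, 5605 and 120.4 FPKM in EcSQ. SI65_08013 had 0.831, 1.24 and 1.02 FPKM in EcRS, against 55, 32.7 and 1.39 FPKM in EcSQ. SI65_05209 had 1.38, 1.05 and 1.09 FPKM in EcRS, against 8.94, 4.34 and 0.615 FPKM in EcSQ. For all 3 genes EcSQ1 and EcSQ2 were high and EcSQ3 lay near the EcRS libraries. EcCK was high for SI65_07647, at 2352, 3273 and 3465 FPKM. The log2 fold change of SI65_07647 was -5.35 (SE 1.23) with an adjusted p of 0.099 in edgeR, so it did not pass with 3 libraries a group. Without EcSQ3 it was -5.92 (adjusted p 4.4e-07 in edgeR). As this gene is shown for the split, leaving out the library near EcRS was bound to lower the p, so it adds no support.

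The genes that passed the test were 3, all higher on *P. ginseng*, and none has a described product. With edgeR's quasi-likelihood test, called at a Benjamini-Hochberg adjusted p of at most 0.05 and at least 2-fold, 3 of 8784 genes (0.0342%) rose in EcRS and 0 (0%) fell. At an unadjusted p under 0.05, 283 genes were higher and 2387 lower. DESeq2 called 458 higher (5.21%) and 1067 lower (12.1%), and limma on log2(FPKM + 1) called 2 higher and 0 lower. Without EcSQ3, edgeR called 374 genes higher (4.23% of 8842 tested) and 4406 lower (49.8%), and with TMM scaling 1532 higher and 2189 lower. Leaving out any of the other 5 libraries left 0 higher and at most 1 lower, so in this scaling the 3 calls needed all 5 of them. With TMM, 3 higher and 3 lower were left without EcSQ1, 1 of them among the 3 calls, and at most 1 without any other of the 5.

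SI65_07607, a gene on contig 9 (727007 to 727918) with no described product, had 92.3, 79.9 and 66.5 FPKM in EcRS, against 3.84, 3.64 and 3.11 FPKM in EcSQ. The 3 EcSQ libraries were close to each other and lay far under EcRS. Its log2 fold change was 4.49 (SE 0.44, adjusted p 0.026, edgeR, n = 3 each). The EcCK libraries, at 44.5, 36.1 and 22.1 FPKM, lay between the groups.

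SI65_06060, on contig 6 (274851 to 275498) and also without a described product, had 512, 603 and 651 FPKM in EcRS, against 31.8, 34.3 and 48.4 FPKM in EcSQ. The log2 fold change was 3.95 (SE 0.33, adjusted p 0.026). EcCK, at 296, 456 and 276 FPKM, was again above every EcSQ library.

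SI65_05213, annotated to zinc ion binding and placed on contig 5 (59085 to 61283), had 237, 390.5 and 467 FPKM in EcRS, against 26.8, 19.97 and 20.6 FPKM in EcSQ. The log2 fold change was 4.02 (SE 0.38, adjusted p 0.026). EcCK stood at 2097, 2615 and 1214 FPKM. Here EcCK was the highest group. In all 3 genes the EcSQ libraries were thus the lowest of the 9, and EcSQ3 stood with its own group. TMM scales libraries so that most genes keep their level, and with it the log2 fold changes were 5.02 for SI65_07607, 4.29 for SI65_06060 and 4.52 for SI65_05213. With TMM SI65_06060 missed the threshold at an adjusted p of 0.052, and 14 genes were called higher and 1 lower.

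Since so few genes passed, the libraries were also compared by whether the 3 EcRS and 3 EcSQ values overlap. EcRS lay above EcSQ without overlap in 505 genes (5.75%) and below in 1856 (21.1%). The median log2 fold change over all genes tested was -0.84, and TMM moved it to -0.21. With FPKM divided by the TMM factor, 1294 genes (14.7%) were apart with EcRS higher and 1242 (14.1%) with EcRS lower. Of these, 430 higher and 1015 lower genes were apart in both scalings, and 0 changed side. By overlap the surplus of lower genes was thus not seen after TMM scaling. In the TMM fit it remained at an unadjusted p under 0.05, with 723 genes higher and 1432 lower.

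Genes apart in the 2 directions differed in length and level. The median coding length was 858 bases for the 505 higher genes and 1615.5 for the 1856 lower genes, against 1248 over all genes tested. In the shortest of 4 equal classes of genes (150 to 786 bases), 10.0% were apart with EcRS higher and 11.1% with EcRS lower. In the longest class (1851 to 16878 bases), 2.37% were higher and 34.8% lower, and with TMM 7.35% and 25.7%. The mean FPKM had a median of 97.8 for the higher and 11.1 for the lower genes. The part of gene length in the gene groups below was not tested, and the median coding length of each list named is given.

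The genes with the widest gaps and EcRS higher included a lipid enzyme and several genes without a described product. Among the 12 genes ranked by the lowest EcRS over the highest EcSQ library, a ranking made after the values were seen, 3 are those that passed. SI65_09885 had 3257, 2873 and 1196 FPKM in EcRS, against 179, 176.7 and 181 FPKM in EcSQ (log2 fold change 3.77, SE 0.44, adjusted p 0.075 in edgeR). The EcSQ libraries were nearly equal and the EcRS libraries spread. SI65_05893 had 251, 165 and 79.8 FPKM in EcRS, against 8.17, 5.29 and 2.87 FPKM in EcSQ. Its log2 fold change was 4.92 (adjusted p 0.080, or 0.019 with TMM). SI65_02740, annotated as phosphatidylserine decarboxylase, which makes the membrane lipid phosphatidylethanolamine, had 14.3, 20.5 and 11.0 FPKM in EcRS, against 2.27, 0.572 and 0.911 FPKM in EcSQ. SI65_05353 and its neighbour SI65_05352, on contig 5, were both apart. SI65_05353 had 318, 418 and 256 FPKM in EcRS, against 43.1, 45.2 and 6.79 FPKM in EcSQ, with EcSQ3 lowest. SI65_05352 had 84.8, 89.9 and 61.0 FPKM in EcRS, against 17.2, 16.1 and 10.6 FPKM in EcSQ, and passed with TMM at an adjusted p of 0.045.

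The widest gaps with EcRS lower included oxidoreductases, a pectin enzyme and a kinetochore protein. SI65_07460, annotated as an iron and 2-oxoglutarate dependent oxidoreductase, had 0.852, 1.14 and 1.42 FPKM in EcRS, against 9.07, 55.9 and 54.9 FPKM in EcSQ (log2 fold change -5.13, SE 0.83, adjusted p 0.084). The 3 groups did not overlap, with EcCK lowest at 0.337, 0.39 and 0.395 FPKM. SI65_03749, described as arabinan endo-arabinosidase B, which cuts the arabinan side chains of pectin, had 2.70, 2.86 and 2.70 FPKM in EcRS, against 17.0, 24.6 and 17.5 FPKM in EcSQ (log2 fold change -2.84, adjusted p 0.084). SI65_06691, described as the kinetochore protein nuf2, which ties chromosomes to spindle fibres, had 6.17, 7.42 and 7.14 FPKM in EcRS, against 32.1, 29.9 and 32.2 FPKM in EcSQ. Here every EcSQ library was more than 4-fold above every EcRS library. SI65_09352, an annotated membrane transporter, had 3.75, 3.70 and 4.82 FPKM in EcRS, against 25.8, 25.8 and 21.4 FPKM in EcSQ.

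**Figure D3:**
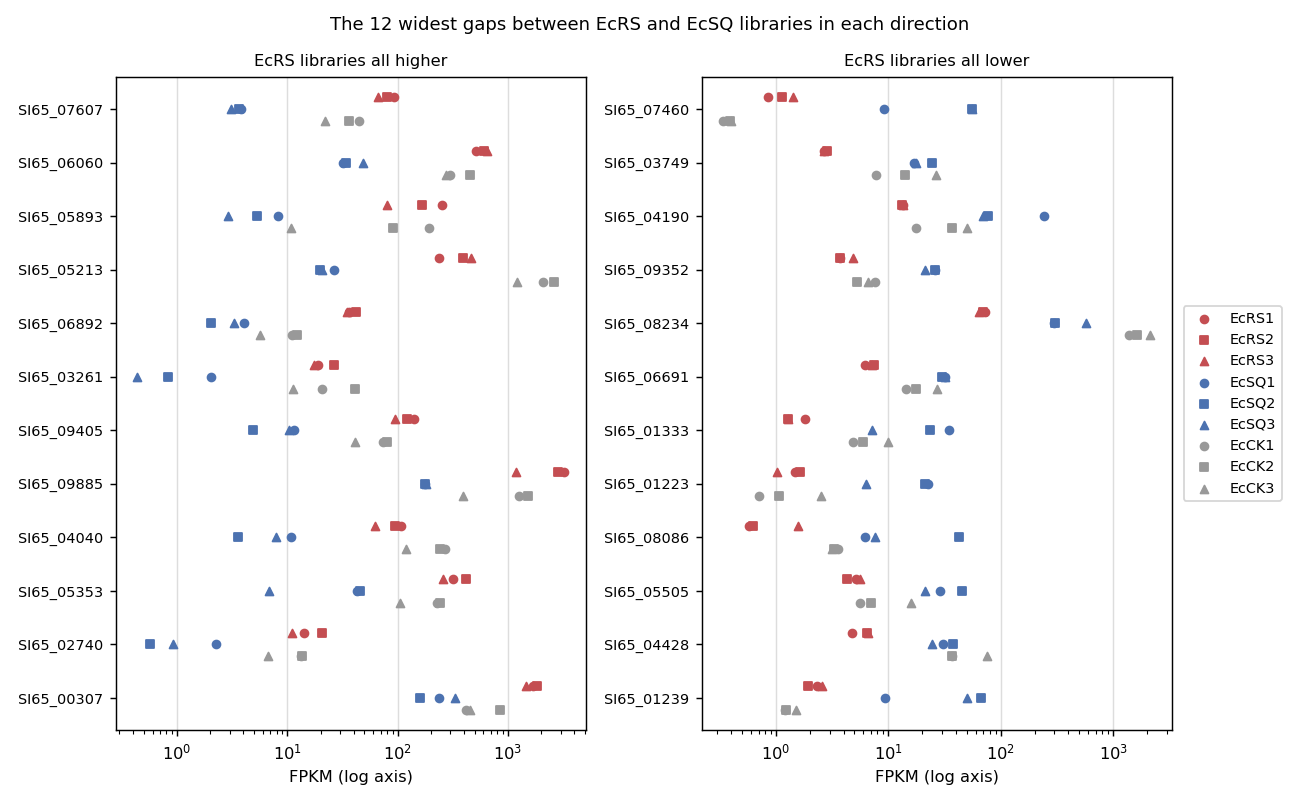
FPKM on a log axis for the 12 genes with the widest gap between EcRS and EcSQ libraries in each direction, left panel EcRS higher and right panel EcRS lower, 1 point per library with EcRS above EcSQ above EcCK in each row. In the top left row SI65_07607 stands at 66.5 to 92.3 FPKM in EcRS and 3.11 to 3.84 FPKM in EcSQ.

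The EcCK libraries place these gaps. Of the 505 genes with EcRS higher, EcRS was also above every EcCK library in 285 (3.24% of genes tested), and EcSQ was below every EcRS and EcCK library in 172 (1.96%). Of the 1856 genes with EcRS lower, EcRS was below every EcSQ and EcCK library in 1240 (14.1%), and EcSQ was above both groups in 362 (4.12%).

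Among the genes with EcRS above both other groups, SI65_02863, a DUF2252 protein, stood at 51.6, 33.2 and 52.9 FPKM in EcRS, against 6.05, 7.66 and 1.27 FPKM in EcSQ and 1.44, 1.61 and 4.49 FPKM in EcCK. SI65_10281 had 1016, 525 and 794 FPKM in EcRS, against 140.2, 107 and 149 FPKM in EcSQ and 58.5, 79.4 and 74.5 FPKM in EcCK. SI65_09249, described as a cyanovirin-N protein, a type of sugar-binding lectin, had 4569, 2648 and 3406 FPKM in EcRS, against 1482, 837 and 865 FPKM in EcSQ, and no more than 45.0 FPKM in any EcCK library. On the same contig 17, SI65_09252, annotated to carbohydrate binding, had 979, 468 and 638 FPKM in EcRS, against 210.3, 325 and 111 FPKM in EcSQ (log2 fold change 1.69, SE 0.48, adjusted p 0.099). Both lectin genes were thus expressed on both roots, higher on *P. ginseng* without overlap, and low without roots. Among the genes with EcSQ above both other groups, SI65_03921, annotated as an acyl-CoA dehydrogenase, an enzyme type of fatty acid breakdown, stood at 3.27, 2.62 and 2.98 FPKM in EcRS, against 10.8, 186 and 170.1 FPKM in EcSQ. EcSQ1 was the lowest EcSQ library by far, and no EcCK library passed 0.341 FPKM. SI65_03619, annotated as malic enzyme, which turns malate into pyruvate, had 106, 166 and 143 FPKM in EcRS, against 398, 939.7 and 1048 FPKM in EcSQ and 53.6, 137 and 108 FPKM in EcCK.

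Of the 30 gene lists, built from the annotation of the table, none held a gene that passed edgeR's test. They are described by their members without overlap, their median log2 fold change and the sum of their FPKM. Each list is given with its counts after TMM scaling and with the members called once EcSQ3 was left out. Over all genes tested, 5.75% were apart with EcRS higher and 21.1% with EcRS lower (with TMM 14.7% and 14.1%), at a median of -0.84, and 4.23% were called higher and 49.8% lower without EcSQ3. The members named as examples were chosen after their values were seen.

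Enzymes that open plant cell walls were lower on *P. ginseng* in the sum, though the spread within EcSQ was wide. The 36 genes summed to 619, 601 and 695 FPKM in EcRS, against 2356, 1240 and 728 FPKM in EcSQ. Of 34 tested, 1 was apart with EcRS higher and 8 (23.5%) with EcRS lower, with a median log2 fold change of -1.06. The share of lower members was near the 21.1% of all genes, whose median was -0.84. With TMM 5 members were apart higher and 8 lower, and without EcSQ3 0 were called higher and 21 lower of 34, at a median coding length of 1089 bases. SI65_04327, described as endo-xylanase C, which cuts xylan, had 15.8, 18.5 and 20.5 FPKM in EcRS, against 94.5, 63.0 and 45.1 FPKM in EcSQ, while EcCK stayed under 0.5 FPKM. SI65_07774, annotated to cellulase activity, had 46.5, 65.1 and 55.4 FPKM in EcRS, against 138, 144 and 236 FPKM in EcSQ (log2 fold change -1.63, SE 0.34, adjusted p 0.099). The cellulase overlapped once scaled by TMM, and the xylanase did not. The 1 higher gene, SI65_07365, described as arabinosidase D, had 23.5, 20.3 and 21.2 FPKM in EcRS, against 15.8, 12.5 and 3.00 FPKM in EcSQ. For starch, SI65_00177, an acid alpha-amylase, had 60.6, 60.5 and 80.4 FPKM in EcRS, against 197, 112 and 155 FPKM in EcSQ and 1.04, 3.27 and 5.59 FPKM in EcCK, apart in FPKM and overlapping with TMM. The glycosidases that remove single sugars, of interest since ginsenosides carry sugar chains, had 0 of 44 members apart with EcRS higher and 8 (18.2%) lower. Over all genes these shares were 5.75% and 21.1%. They summed to 1579, 1603 and 1681 FPKM in EcRS, against 3159, 2882 and 1923 FPKM in EcSQ, and with TMM the sums overlapped. SI65_01615, assigned to a beta-glucosidase, had 37.6, 40.1 and 43.0 FPKM in EcRS, against 58.8, 115 and 127 FPKM in EcSQ, and overlapped with TMM. For these glycosidases, 4 members were apart higher and 8 lower with TMM and 0 were called higher and 34 lower of 45 without EcSQ3, at a median coding length of 1941 bases.

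In sterol synthesis an early pair of enzymes was lower on *P. ginseng* in every library. SI65_05438, HMG-CoA reductase, which controls the flow into sterols, had 39.9, 36.0 and 55.8 FPKM in EcRS, against 111, 208 and 167 FPKM in EcSQ (log2 fold change -1.88, SE 0.36, adjusted p 0.090). SI65_05826, HMG-CoA synthase, the enzyme before it, had 594, 881 and 845 FPKM in EcRS, against 1118, 2323 and 2468 FPKM in EcSQ (log2 fold change -1.35, adjusted p 0.10). EcSQ3 was high in both. Scaled by TMM, both genes kept their direction, at log2 fold changes of -1.47 for SI65_05438 and -1.01 for SI65_05826, and overlapped between the groups. Over the ergosterol list, 4 of 53 members were apart with EcRS higher and 7 (13.2%) lower. The list summed to 5498, 5565 and 5803 FPKM in EcRS, against 6852, 8340 and 10688 FPKM in EcSQ. With TMM these sums overlapped. For this list, 5 members were apart higher and 2 lower with TMM and 1 was called higher and 21 lower of 53 without EcSQ3, at a median coding length of 1239 bases.

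A pair of neighbouring genes of proline breakdown, chosen after their values were seen, had higher values on *P. ginseng*, and neither passed the test. SI65_07063, annotated as proline dehydrogenase, the first enzyme of proline breakdown, had 123, 93.1 and 119 FPKM in EcRS, against 38.5, 33.4 and 25.1 FPKM in EcSQ (log2 fold change 1.79, SE 0.32, adjusted p 0.084). Its neighbour on contig 8, SI65_07062, the next enzyme, delta-1-pyrroline-5-carboxylate dehydrogenase, had 144, 150.3 and 125 FPKM in EcRS, against 73.7, 84.0 and 83.8 FPKM in EcSQ (adjusted p 0.11). Both were higher on *P. ginseng* in all 3 libraries, and both stayed so after TMM scaling. The wider list of arginine, proline and polyamine genes had 3 of 103 members apart with EcRS higher and 22 (21.4%) lower, near the share of all genes. With TMM 14 members were apart higher and 18 lower, and without EcSQ3 1 was called higher and 62 lower of 103, at a median coding length of 1377 bases. Its sum of 5078, 5006 and 5248 FPKM in EcRS stood against 15129, 12972 and 4736 FPKM in EcSQ. SI65_06901, described as an agmatinase, which makes putrescine, had 6.65, 4.96 and 6.33 FPKM in EcRS, against 29.5, 21.5 and 11.0 FPKM in EcSQ. Nitrogen uptake and assimilation had 0 of 53 members higher and 13 (24.5%) lower. For nitrogen, 4 members were apart higher and 10 lower with TMM and 0 were called higher and 30 lower of 53 without EcSQ3, at a median coding length of 1398 bases. Among them, and overlapping with TMM, SI65_10199, the nitrogen regulator areA, had 21.3, 21 and 24.1 FPKM in EcRS, against 40.7, 46.6 and 44.8 FPKM in EcSQ.

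Genes annotated to the ribosome were more often apart with EcRS higher than with EcRS lower. Without EcSQ3 more of them were called lower than higher, 16.7% against 9.52%, beside 49.8% and 4.23% of all genes. The genes of ribosome assembly were more often lower in every setting given. Of 126 genes annotated to the ribosome, 22 (17.5%) were apart with EcRS higher and 6 lower. The median log2 fold change was 0.13, or 0.75 with TMM, and -0.08 without EcSQ3. With TMM 57 members were apart higher and 4 lower, and without EcSQ3 12 were called higher and 21 lower of 126, at a median coding length of 529.5 bases. SI65_01693, protein L29 of the large subunit, had 2973, 1719 and 1559 FPKM in EcRS, against 683, 436 and 767 FPKM in EcSQ. SI65_05503, protein L23e, had 1789, 988 and 1612 FPKM in EcRS, against 544, 454 and 316 FPKM in EcSQ. In both genes EcRS was above EcSQ, and EcSQ above EcCK, without overlap. The list of ribosome biogenesis had 3 of 91 members higher and 34 (37.4%) lower, with a median of -1.54 and of -0.77 with TMM. With TMM 5 members were apart higher and 25 lower, and without EcSQ3 1 was called higher and 63 lower of 91, at a median coding length of 1194 bases. SI65_03976, periodic tryptophan protein 2, which processes the small subunit rRNA, had 7.92, 6.01 and 6.44 FPKM in EcRS, against 16.7, 12.4 and 19.2 FPKM in EcSQ, and overlapped with TMM. The respiratory chain list had 14 of 94 members (14.9%) higher and 13 lower, with a median of -0.00, or 0.43 with TMM. The even balance did not hold with TMM: 26 members were apart higher and 5 lower with TMM and 8 were called higher and 13 lower of 94 without EcSQ3, at a median coding length of 705 bases. In it SI65_03243, annotated to cytochrome c oxidase, had 1364, 917 and 893 FPKM in EcRS, against 298, 283 and 588 FPKM in EcSQ. SI65_04884, the 78 kDa subunit of NADH-ubiquinone oxidoreductase, had 33.0, 30.5 and 39.0 FPKM in EcRS, against 68.8, 82.2 and 89.9 FPKM in EcSQ, so enzymes of the same chain lay apart in opposite directions. With TMM only the first of this pair stayed apart.

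Transcription factors and mobile elements had the highest shares of lower members among the 30 lists in the FPKM of the authors. For mobile elements this did not hold in the other settings, with 24.4% lower after TMM scaling, below ribosome biogenesis at 27.5%, and 46.7% called lower without EcSQ3, under the share of all genes. Transcription factors kept the highest share with TMM, at 32.3%. Without EcSQ3 their 72.3% lay under the glycosidases that remove single sugars, at 75.6%, and DNA repair, at 73.0%. Of 167 genes annotated as RNA polymerase II transcription factors, 4 were apart with EcRS higher and 73 (43.7%) lower, with a median of -1.37. With TMM 8 members were apart higher and 54 lower, and without EcSQ3 3 were called higher and 125 lower of 173, at a median coding length of 2001 bases. SI65_04805, on the higher side, had 490.2, 411 and 151 FPKM in EcRS, against 79.0, 62.4 and 33.2 FPKM in EcSQ. SI65_05689, on the lower side, had 3.27, 5.08 and 6.52 FPKM in EcRS, against 25.3, 26.9 and 21.1 FPKM in EcSQ. Genes of reverse transcriptases, integrases and transposases summed to 604, 697 and 676 FPKM in EcRS, against 1173, 1151 and 1353 FPKM in EcSQ. This sum did not overlap between the groups in the FPKM of the authors and did with TMM, and EcSQ3 was the highest library. Of 90 tested members, 1 was higher and 43 (47.8%) lower. With TMM 3 members were apart higher and 22 lower, and without EcSQ3 1 was called higher and 43 lower of 92, at a median coding length of 2220 bases. Copies of such elements share sequence, so reads may be split between them.

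Several regulators of conidiation had lower values on *P. ginseng*, while the list of asexual sporulation as a whole had 9 of 173 members higher and 37 (21.4%) lower, near the share of all genes. For this list, 24 members were apart higher and 18 lower with TMM and 10 were called higher and 68 lower of 176 without EcSQ3, at a median coding length of 1755 bases. It summed to 21164 to 23992 FPKM in EcRS, against 21198 to 27619 FPKM in EcSQ, and 1 of its 184 members was at 0 in all 6 libraries. The genes that follow were chosen after their values were seen. SI65_02778, described as brlA, which starts conidiophore growth in *A. nidulans*, had 23.4, 26.3 and 35.2 FPKM in EcRS, against 46.0, 72 and 61.8 FPKM in EcSQ (log2 fold change -1.08, SE 0.36, adjusted p 0.11). SI65_01598, abaA, which acts after brlA, had 0.927, 1.65 and 2.92 FPKM in EcRS, against 9.15, 9.86 and 3.53 FPKM in EcSQ. EcRS3 and EcSQ3 came close for abaA but did not overlap. SI65_03573, stuA, which shapes the conidiophore, had 129, 116 and 151 FPKM in EcRS, against 515, 731 and 380.1 FPKM in EcSQ (log2 fold change -2.04, SE 0.35, adjusted p 0.084). SI65_09066, apsA, which moves nuclei into the sterigmata, had 5.11, 5.71 and 5.71 FPKM in EcRS, against 27.2, 32.6 and 16.9 FPKM in EcSQ. None of these 4 passed the test, and in each all EcRS libraries were below all EcSQ libraries. With TMM brlA overlapped, at a log2 fold change of -0.66, and abaA, stuA and apsA stayed apart. Other members of the asexual sporulation list were apart with EcRS higher in both scalings. SI65_07553 had 372, 402 and 281 FPKM in EcRS, against 62.3, 94.0 and 111 FPKM in EcSQ (log2 fold change 1.98, SE 0.34, adjusted p 0.084 in edgeR). SI65_04031 and SI65_04805 had log2 fold changes of 1.43 and 2.59. SI65_06388, fluG, an early signal for conidiation, overlapped, with 118, 98.4 and 67.3 FPKM in EcRS, against 52.1, 77.7 and 56.4 FPKM in EcSQ. SI65_09934, a conidiation-specific protein, overlapped as well, with 1.501, 0.598 and 2.03 FPKM in EcRS, against 15.2, 2.07 and 1.54 FPKM in EcSQ. Sexual development had 11 of 284 members higher and 79 (27.8%) lower. With TMM 36 members were apart higher and 38 lower, and without EcSQ3 11 were called higher and 125 lower of 287, at a median coding length of 1713 bases. Its sum was 46655 to 53810 FPKM in EcRS, against 39675 to 65483 FPKM in EcSQ. The mating type gene MAT1-1, SI65_05562, had 29.3, 34.5 and 41.2 FPKM in EcRS, against 15.8, 28.2 and 128 FPKM in EcSQ, with EcSQ3 far above the rest. In such bulk samples, fewer spores or fruiting bodies and less RNA in each of them cannot be told apart.

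Heat shock proteins went both ways. SI65_09754, a 30 kDa heat shock protein, had 401, 269 and 433 FPKM in EcRS, against 93.5, 45.1 and 174 FPKM in EcSQ, both far under EcCK at 28283, 17258 and 1409.7 FPKM. SI65_07742, Hsp88, a large chaperone, had 24.1, 22.8 and 23.8 FPKM in EcRS, against 159, 137 and 50.2 FPKM in EcSQ (log2 fold change -2.29, SE 0.45, adjusted p 0.099). The list had 14 of 151 members (9.27%) apart with EcRS higher and 32 (21.2%) lower. For these genes, 36 members were apart higher and 14 lower with TMM and 10 were called higher and 59 lower of 151 without EcSQ3, at a median coding length of 1347 bases. SI65_01834 and SI65_02047, both described as a sphingolipid long chain base-responsive protein, had nearly equal values, at 64.4, 107 and 64.1 FPKM in EcRS and 36.2, 40.9 and 18.9 FPKM in EcSQ for SI65_01834, and reads may be split between these copies. Secondary metabolism, which makes polyketides and other small products, had 1 of 108 members higher and 21 (19.4%) lower. With TMM 11 members were apart higher and 14 lower, and without EcSQ3 2 were called higher and 65 lower of 111, at a median coding length of 1419 bases. It summed to 6588, 6062 and 7257 FPKM in EcRS, against 14200, 13240 and 5668 FPKM in EcSQ, so EcSQ1 and EcSQ2 were high and EcSQ3 lay below EcRS.

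Sugar uptake, energy metabolism and cell division held further genes without overlap. SI65_01403, described as the sugar transporter STL1, had 43.5, 59.2 and 46.9 FPKM in EcRS, against 16.6, 24.6 and 18.2 FPKM in EcSQ (log2 fold change 1.33, SE 0.35, adjusted p 0.099). It belongs to a list of 16 sugar transport genes with 3 apart higher and 2 lower, which also holds SI65_08710, a hexokinase, which traps sugar in the cell, and SI65_01606, the replication protein PCNA, which is no transporter. The hexokinase had 205, 259 and 226 FPKM in EcRS, against 166, 178 and 144 FPKM in EcSQ. SI65_01317, pyruvate kinase, which ends glycolysis, had 393, 380.3 and 529 FPKM in EcRS, against 239.7, 249 and 249 FPKM in EcSQ. These 3 genes were higher on *P. ginseng* in every library and in both scalings. For the sugar transport list, 3 members were apart higher and 3 lower with TMM and 1 was called higher and 4 lower of 16 without EcSQ3, at a median coding length of 1600.5 bases. Glycolysis had 9 of 89 members higher and 8 lower. For glycolysis, 19 members were apart higher and 7 lower with TMM and 4 were called higher and 45 lower of 89 without EcSQ3, at a median coding length of 1314 bases. The TCA and glyoxylate cycles had 8 of 86 higher and 10 lower. For these cycles, 15 members were apart higher and 7 lower with TMM and 5 were called higher and 33 lower of 87 without EcSQ3, at a median coding length of 1399.5 bases. The balance of both lists thus turned between the settings. The shares of all genes moved as well, from 5.75% higher and 21.1% lower to 14.7% and 14.1% with TMM. Without EcSQ3 they were 4.23% called higher and 49.8% lower. PCNA, the sliding clamp of DNA replication, SI65_01606, had 204, 197 and 227 FPKM in EcRS, against 117, 144 and 151 FPKM in EcSQ. SI65_08069, a structural maintenance of chromosomes protein, which compacts or holds chromosomes, had 7.38, 7.36 and 8.92 FPKM in EcRS, against 44.2, 46.6 and 17.4 FPKM in EcSQ. The cell cycle list had 2 of 121 members higher and 35 (28.9%) lower. For cell cycle genes, 7 members were apart higher and 19 lower with TMM and 0 were called higher and 63 lower of 121 without EcSQ3, at a median coding length of 1827 bases. DNA repair had 3 of 136 higher and 33 (24.3%) lower. With TMM 9 members were apart higher and 31 lower, and without EcSQ3 3 were called higher and 100 lower of 137, at a median coding length of 1738.5 bases.

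Lists of protein breakdown and secretion lay under the 21.1% of all genes in their share of lower members, and the P450, iron uptake, ABC and transmembrane transport lists lay near or above it. SI65_09622, prtT, an activator of secreted proteases in aspergilli, had 5.14, 6.03 and 8.25 FPKM in EcRS, against 18.3, 19.5 and 14.8 FPKM in EcSQ (log2 fold change -1.44, SE 0.44, adjusted p 0.10). The protease list had 7 of 147 members higher and 18 (12.2%) lower. For proteases, 38 members were apart higher and 12 lower with TMM and 0 were called higher and 70 lower of 148 without EcSQ3, at a median coding length of 1461 bases. The balance of this list thus turned with the scaling, and the shares of all genes moved from 5.75% higher and 21.1% lower to 14.7% and 14.1%. SI65_05169, NADPH-cytochrome P450 reductase, which feeds electrons to P450 enzymes and sterol synthesis, had 14.4, 14.4 and 18.7 FPKM in EcRS, against 47.3, 69.9 and 60.7 FPKM in EcSQ. The P450 and monooxygenase list had 3 of 90 higher and 20 (22.2%) lower. With TMM 9 members were apart higher and 16 lower, and without EcSQ3 4 were called higher and 57 lower of 90, at a median coding length of 1504.5 bases. SI65_01062, an alcohol oxidase, had 9.39, 8.64 and 9.30 FPKM in EcRS, against 47.9, 70.1 and 26.3 FPKM in EcSQ. ABC and multidrug transporters had 0 of 45 higher and 12 (26.7%) lower. For these transporters, 3 members were apart higher and 11 lower with TMM and 0 were called higher and 26 lower of 46 without EcSQ3, at a median coding length of 2742 bases. Iron uptake had 0 of 33 higher and 8 (24.2%) lower. For iron uptake, 4 members were apart higher and 6 lower with TMM and 0 were called higher and 17 lower of 34 without EcSQ3, at a median coding length of 1572 bases. Transmembrane transport at large had 14 of 281 higher and 82 (29.2%) lower. With TMM 30 members were apart higher and 62 lower, and without EcSQ3 11 were called higher and 151 lower of 281, at a median coding length of 1587 bases. The extracellular list had 8 of 179 higher and 28 (15.6%) lower. For the extracellular list, 40 members were apart higher and 16 lower with TMM and 5 were called higher and 67 lower of 183 without EcSQ3, at a median coding length of 1239 bases. The lists of peroxisomes, oxidative stress, fungal wall remodelling and N-glycans had between 13.9% and 21.5% of members lower and between 4.76% and 8.23% higher. With TMM each of these 4 lists had more members higher than lower, and without EcSQ3 each had more called lower, between 28.97% and 52.5%. Over all genes, 14.7% were higher and 14.1% lower with TMM, and 49.8% were called lower without EcSQ3. Their median coding lengths lay between 1228.5 and 1617 bases.

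**Figure D4:**
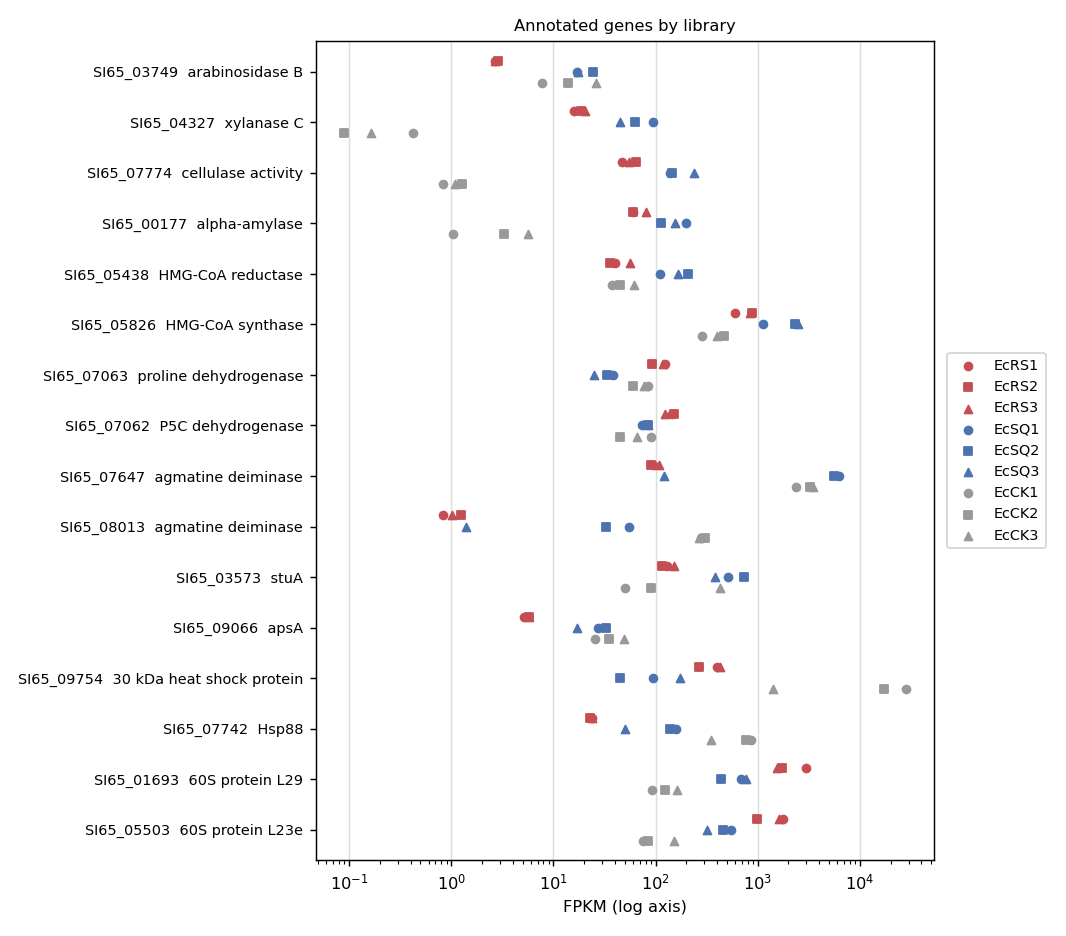
FPKM on a log axis for 16 annotated genes, 1 point per library, with EcRS above EcSQ above EcCK in each row. HMG-CoA reductase stands at 36.0 to 55.8 FPKM in EcRS and 111 to 208 FPKM in EcSQ, while in both agmatine deiminase rows EcSQ3 lies beside EcRS.

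**Figure D5:**
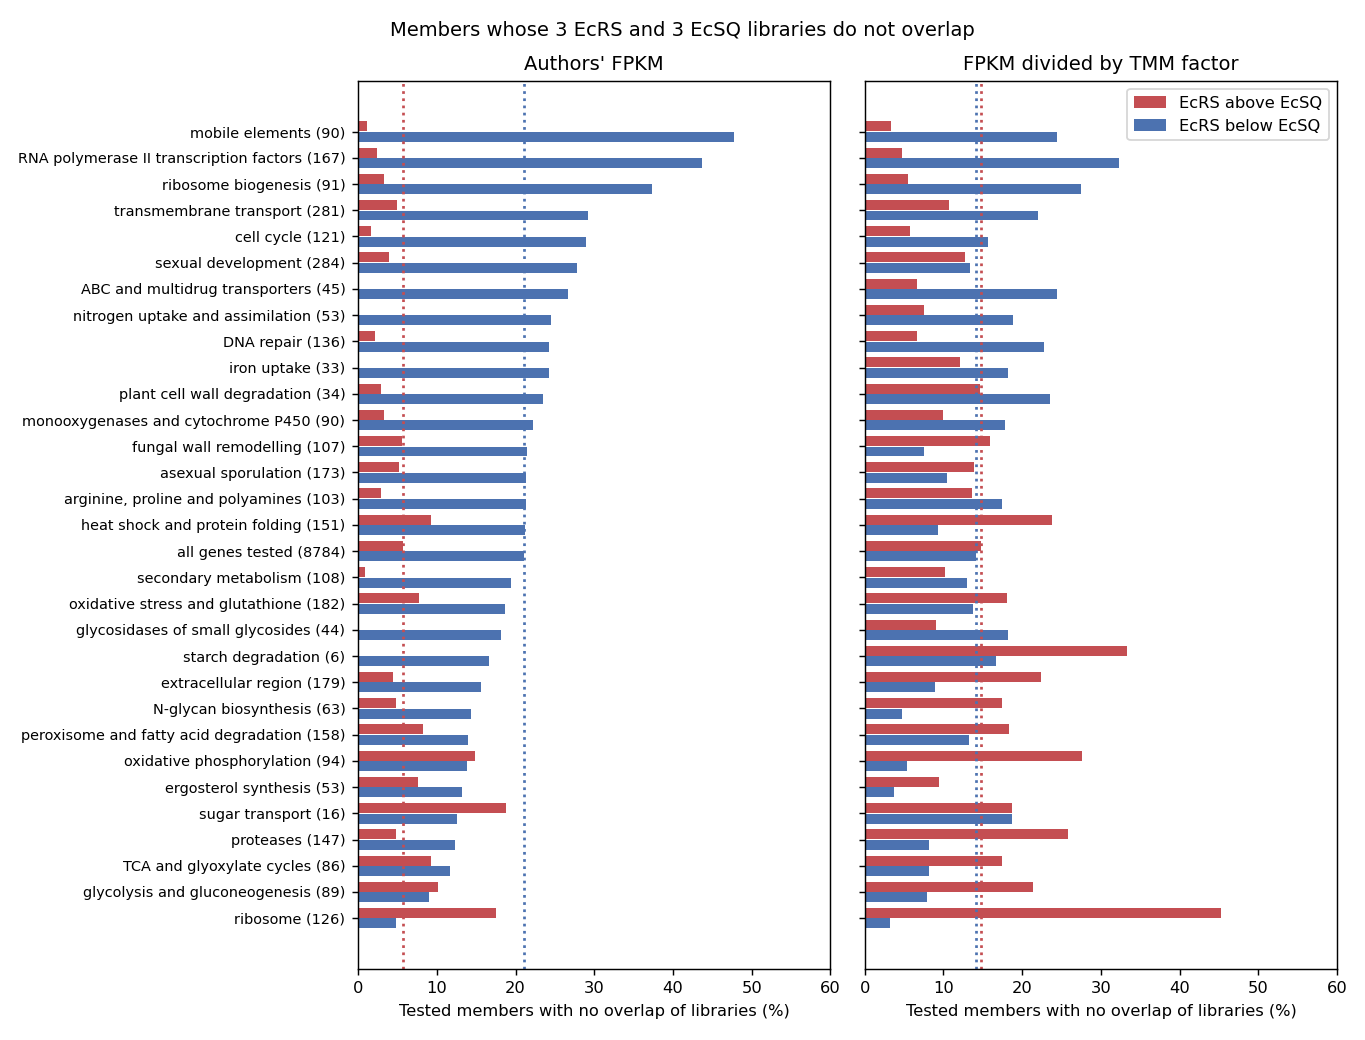
Percent of tested members whose 3 EcRS and 3 EcSQ libraries do not overlap, for 30 lists and for all genes tested (number tested in brackets), red for EcRS above and blue for EcRS below, with dotted lines at the share of all genes. In the FPKM of the authors (left) ribosome has 17.5% of members above and mobile elements 47.8% below, and after TMM scaling (right) the shares of all genes are 14.7% above and 14.1% below.

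Of the 13 genes that the study names, 8 overlapped between the roots, 5 were apart and 0 passed the test. SI65_07291, described as the glucanosyltransferase gel1, which lengthens wall glucan, had 2286, 2741 and 2964 FPKM in EcRS, against 1209, 2201 and 3955 FPKM in EcSQ (log2 fold change 0.12, SE 0.46). SI65_03984 had 4738, 5838 and 6993 FPKM in EcRS, against 3221, 5620.4 and 10988 FPKM in EcSQ. SI65_03558, SI65_07757 and SI65_00163 likewise overlapped, with log2 fold changes of -0.05, 0.01 and -0.44. All 5 genes lay above every EcCK library on both roots. SI65_07774 and SI65_09252, given above, did not overlap, the first lower and the second higher in EcRS. The other 6, SI65_07647 among them, were low in EcRS and in EcSQ3 and higher in EcCK. SI65_03730, annotated to ATP binding in the membrane, had 0.22, 0.416 and 0.504 FPKM in EcRS, against 46.5, 17.7 and 0.766 FPKM in EcSQ and 75.2, 98.3 and 144 FPKM in EcCK. SI65_01124, annotated to the Cdc73/Paf1 complex of transcription, had 0.0447, 0.103 and 0.11 FPKM in EcRS, against 20.3, 10.2 and 0.0904 FPKM in EcSQ. SI65_05495 has no product in the table and is placed in the agmatine deiminase family by the study, which the annotation used here does not repeat. SI65_07200, SI65_02228 and SI65_05495 had the same pattern, with log2 fold changes of -4.78, -4.06 and -3.88. For these 6 genes the difference between the roots rests on EcSQ1 and EcSQ2.

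Among the 6 most abundant genes by mean FPKM, 5 overlapped between EcRS and EcSQ, and SI65_04725 was apart with EcRS higher, at 15365, 8262 and 10979 FPKM in EcRS, against 6105, 6163 and 3306 FPKM in EcSQ. SI65_07419 had 29532, 25543 and 27194 FPKM in EcRS, against 23729, 16910.3 and 74803 FPKM in EcSQ, where EcSQ3 was highest, with 7.66% of its summed FPKM in this gene. SI65_06064 had 29717, 20854 and 26310.4 FPKM in EcRS, against 16262, 24087 and 6922 FPKM in EcSQ. With TMM SI65_06064 and SI65_02849, another of the 6, were apart with EcRS higher as well. Next to these 6, SI65_01009, elongation factor 1-alpha, which brings tRNA to the ribosome, had 7410.2, 8221 and 9438 FPKM in EcRS, against 6972, 7677 and 9759 FPKM in EcSQ (log2 fold change 0.04, SE 0.36). SI65_02925, plasma membrane proteolipid 3 and itself among the 6, had 12798, 11925 and 8637 FPKM in EcRS, against 1935, 3499.7 and 13443 FPKM in EcSQ, with EcSQ3 above every EcRS library.

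Along the contigs, no run of 4 or more neighbouring genes was called. Runs of at least 4 neighbours apart in the same direction numbered 1 with EcRS higher and 19 with EcRS lower. When each member also had to differ 4-fold, 1 run was left, SI65_05144 to SI65_05147 on contig 4, all lower in EcRS. SI65_05145 in it, an annotated transcription factor, had 0.33, 0.792 and 0.77 FPKM in EcRS, against 2.57, 4.39 and 5.89 FPKM in EcSQ. SI65_05144 and SI65_05147, described as the RNA helicases dbp10 and dbp4 of ribosome assembly, had EcSQ3 values of 0.50 and 0.53 FPKM, just above EcRS.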

How the data were processed

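The authors sequenced total RNA from *A. cristatus* mycelium. Per the labels, HISAT2 2.0, StringTie 1.3.0 and Bowtie 0.12.2 were used in the processing, with no roles given there. They deposited an estimated count and an FPKM per gene and library in 1 table, which holds no comparison columns used here. The count of a gene follows coverage, so a read may count more than once. Groups came from the labels. After rounding, counts entered edgeR 4.0.16 (R 4.3.3, quasi-likelihood test, EcRS over EcSQ, no other covariate). The library size was the per-million factor that links count, FPKM and coding length in genes of at least 200 counts. Genes with a mean under 1 FPKM over the 6 libraries were left out. SE is the log2 fold change over the square root of F. DESeq2 1.42.0, limma 3.58.1 (pseudocounts of 0.1, 1 and 5), TMM, other filters, a replicate block, all 9 libraries and leaving out each library were alternatives. Settings with TMM and a block or a library left out, and the overlap counts with TMM, were added after the data had been seen. Only the main edgeR fit was tried on simulated data. That simulation held no library that departed from its group, so it does not bear on EcSQ3. Genes were named if called (the largest and most abundant, up to 2 per list, runs of at least 4 neighbours) or if among the 13 the study names. As only 3 genes were called, others were added by gap, with a mean of at least 10 FPKM in the higher group, or as list examples, after their values were seen. The comparison and the lists were chosen with earlier results of these data known. Coverage-based counts give no depth in reads, so precision rests on the spread between libraries.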

Additional observations from a re-analysis of the deposited data

How the results depend on the processing

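Against 3 genes higher and 0 lower, TMM gave 14 and 1, DESeq2 size factors in edgeR 8 higher, DESeq2 458 and 1067, and a fit of all 9 libraries 118 and 1105. limma gave 0 higher with a pseudocount of 0.1 and 5 with 5. Leaving out 1 library gave 0 to 374 higher and 0 to 4406 lower, and with TMM 0 to 1532 higher and 0 to 2189 lower, the highest without EcSQ3. A fit that keeps 2 libraries in a group pools the spread of both. The replicate block gave 0 higher and 0 lower, and TMM with the block 6 higher. The numbers were not taken as pairs, since the methods name no block. Same-numbered libraries had correlations of deviations of 0.21, -0.17 and -0.11, and only EcRS1 and EcSQ1 correlated best with their own number. Deviations from a group mean sum to 0 within the group, so these correlations cannot decide on pairing. With TMM-scaled FPKM, 1294 genes were apart with EcRS higher and 1242 lower, against 505 and 1856. The causes were not tested. The other filters, counts divided by 4 and no fold threshold left 3 higher and 0 lower. The log2 fold change of 9 named genes changed sign in 1 or more settings. All 9 overlapped between the groups in the FPKM of the authors, and SI65_02849 was apart with EcRS higher after TMM scaling. For SI65_00163 it was 0.36 with TMM, 0.39 with DESeq2 or its size factors and 0.49 with TMM and the replicate block. For SI65_03558 it was 0.13 with TMM, 0.037 with DESeq2 or its size factors, 0.13 with limma at pseudocounts of 1 and 0.1, 0.12 at 5, 0.14 with the block and 0.77 with TMM and the block. For SI65_03984 it was 0.013 with TMM and 0.59 with TMM and the block. TMM with the block gave 0.54 for SI65_05562 and 0.49 for SI65_07419. Leaving out 1 library, with and without TMM, moved SI65_00163 between -0.91 and 0.77, SI65_01009 between -0.061 and 1.14, SI65_02849 between -0.18 and 1.19, SI65_03558 between -0.34 and 1.60, SI65_03984 between -0.50 and 1.32, SI65_05562 between -1.245 and 1.58, SI65_07291 between -0.21 and 1.555, SI65_07419 between -0.85 and 1.43 and SI65_07757 between -0.35 and 1.50.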
